A study of Oryza sativa with 8 samples.

Results

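The nuclear response to 2 male-sterile cytoplasms of rice was compared on 4 arrays, 2 labelled D62A (D type) and 2 labelled XQZ-A (DA type), out of the 8 arrays of the study. The other 4 arrays carry ZhenShan97A, a line with cytoplasm of the wild abortive type, and the fertile maintainer Meixiang B, and they served here for the error estimate and as reference levels. The comparison took in all 40832 probes, with no choice by value, and asked which transcripts differ between lines whose nuclei were both brought close to that of Meixiang B by repeated backcrossing. The methods class the lines as near isogenic while the substitution rates they give from markers are short of complete, and remaining donor segments and cytoplasm cannot be told apart in a difference between the lines. All plants were grown in the field and sampled at the uninucleate microspore stage, with 2 biological replicates a line. The labels call the tissue young panicle and the methods call it anthers.

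In cytoplasmic male sterility (CMS), a mitochondrial gene inherited through the mother prevents the formation of functional pollen, while the plant is otherwise healthy. The tapetum, the innermost cell layer of the anther wall, feeds the microspores and delivers lipids for the pollen wall, and its mistimed death is a known route to pollen abortion in rice. Mitochondrial dysfunction is signalled to the nucleus, so that alloplasmic lines with 1 nuclear background can be used to see how nuclear transcripts differ with the cytoplasm.

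The names of both lines need caution before any direction is read. The fold changes against Meixiang B in a supplementary table of the study were matched to the arrays: of its 620 rows, 588 matched a probe within 0.005 log2 units in every sterile line when the names XQZ-A and D62-A were exchanged, and 2 matched as labelled. Whether the table or the array labels carry the exchange is not known. Directions here follow the array labels, and each would turn around if the labels were the ones exchanged.

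The arrays differed more by replicate number than by line. The median intensity was 7.65 to 8.15 on the 4 arrays of replicate 1 and 19.2 to 20.6 on those of replicate 2. Across the 20416 brighter probes, Pearson's correlation of log2 intensities between D62A and XQZ-A was 0.971 within replicate 1 and 0.945 within replicate 2, whereas that between the replicates of a line was 0.906 for D62A and 0.874 for XQZ-A. Differences between both lines were therefore taken within a replicate number, on log2 intensities with values under 16 set to 16. As 16376 probes lay at or below 16 on all 4 arrays, they carry no difference.

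D62A and XQZ-A were among the more similar pairs of lines. Between them, 124 probes were at least 2-fold apart in the same direction within both replicate numbers, 82 higher and 42 lower on the D62A arrays. This is 0.402% and 0.206% of the probes fitted. The same count was 99 for D62A against ZhenShan97A, 305 for D62A against Meixiang B, 352 for XQZ-A against ZhenShan97A, 516 for ZhenShan97A against Meixiang B and 613 for XQZ-A against Meixiang B. These counts share arrays and carry no test. At least 4-fold differences in both replicate numbers were found for 2 probes, 1 in each direction, and 3 probes were 2-fold apart in opposite directions. The excess of higher probes depended on the scaling: quantile normalization gave 67 higher and 60 lower, and division by the array median 71 and 62.

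**Figure D1:**
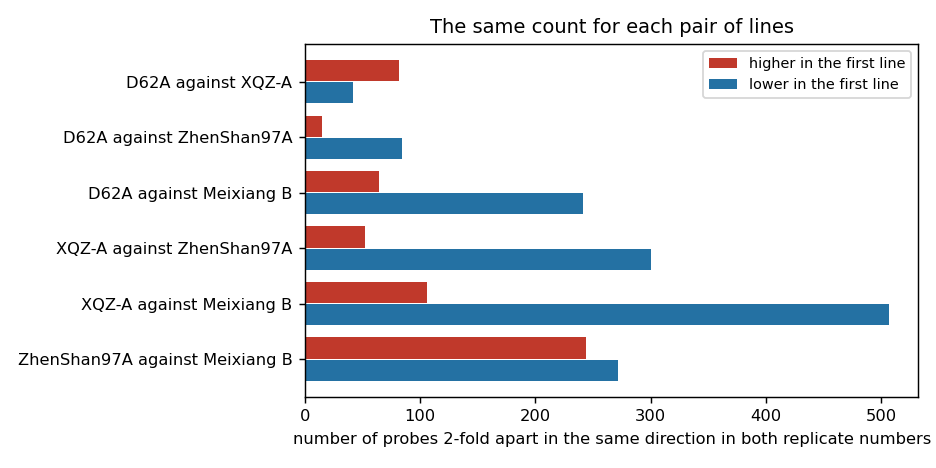
Number of probes at least 2-fold apart in the same direction within both replicate numbers for each pair of the 4 lines (horizontal axis, count from 0), split into those higher (red) and lower (blue) in the first line named. D62A against XQZ-A gave 82 and 42, against 106 and 507 for XQZ-A against Meixiang B.

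No probe passed the thresholds of the study's methods in limma with the replicate number as a term, an adjusted p under 0.01 and a 2-fold difference (0% of 20416 probes, 0 higher and 0 lower). The smallest adjusted p was 0.046, and 2786 probes (13.6%) had an unadjusted p under 0.05, 1895 of them higher (9.28%) and 891 lower (4.36%) on D62A arrays. The t-test named in the methods, with Benjamini-Hochberg adjustment, also gave 0 probes, with 595 at an unadjusted p under 0.05. It was run on the 4 arrays without the replicate number and took in the dim probes too. The 595 and the 2786 are therefore not like counts. At an adjusted p under 0.05 and 2-fold, limma called 11 probes (0.0539%), 6 higher (0.0294%) and 5 lower (0.0245%). That set rests on the processing and on the arrays used. There were 0 such probes with quantile normalization, a floor of 32, no filter on dim probes, no replicate block, only the 4 arrays or a mean-variance trend. Division by the median gave 78, no floor with 1 added gave 34, and a mean intensity above 32 gave the same 11. Without D62A replicate 1 there were 237 such probes, 140 higher and 97 lower, including the same 11, and with any other of the 8 arrays left out there were 0. Values below are therefore given by array, and "higher" or "lower" describes the 4 arrays unless the test is named.

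**Figure D2:**
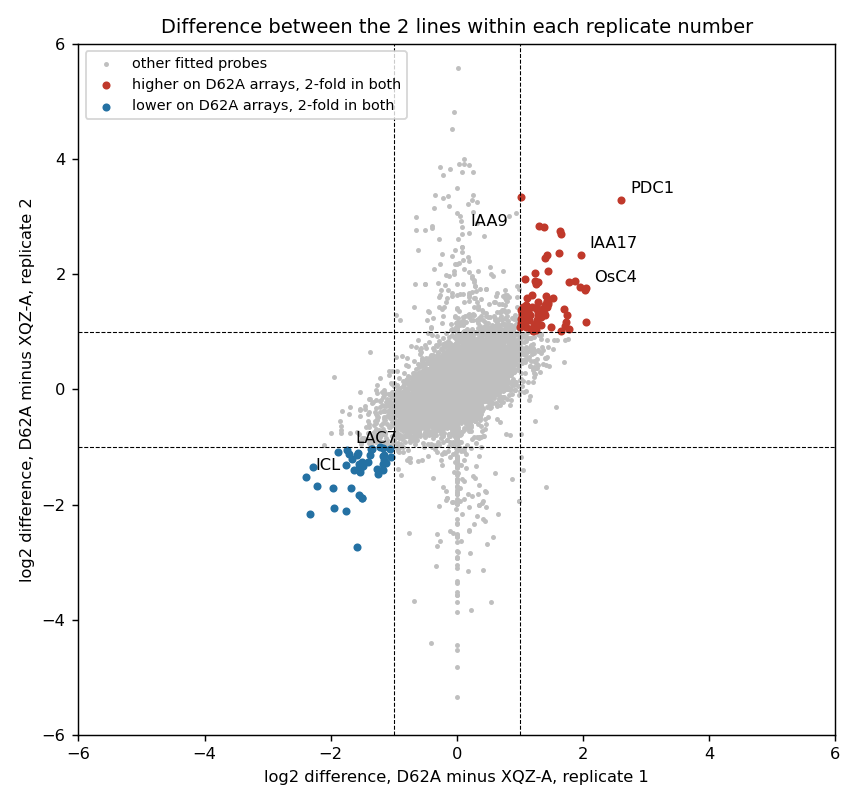
Log2 difference, D62A minus XQZ-A, of each fitted probe between the arrays of replicate 1 (horizontal axis) and of replicate 2 (vertical axis), with dashed lines at 2-fold. The 82 red and 42 blue probes were 2-fold apart in the same direction in both, and the grey column at 0 holds probes, IAA9 among the probes near it, that differed in replicate 2 while replicate 1 lay at or near the floor.

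The 2 differences correlated across the fitted probes with r = 0.453, which describes probes of the same 4 arrays and not independent replicates. Replicate 2 gave the more numerous differences: 384 probes were 2-fold higher and 229 lower in it, against 192 and 192 in replicate 1. These are not like counts, as more probes lay at the floor in replicate 1. There, 65.2% of all probes were at or below 16 on either array, against 43.6% (D62A) and 42.5% (XQZ-A) in replicate 2.

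Of the 11 probes called at an adjusted p under 0.05, 6 lie in exactly 1 gene each, and none of these genes has a symbol in the annotation used. LOC4336587 had the brightest signal of the probes called higher, at 535 and 746 on the D62A arrays (replicates 1 and 2) and 204 and 306 on the XQZ-A arrays. It was 2.62- and 2.44-fold higher within the replicate numbers (log2 difference 1.34, SE 0.13, limma adjusted p = 0.046). ZhenShan97A (566 and 796) and Meixiang B (526 and 664) lay near D62A, so that XQZ-A stood apart from the other lines on its probe.

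LOC4330012 gave 241 and 391 on D62A arrays and 58.1 and 116 on XQZ-A arrays (log2 difference 1.91, SE 0.20, limma adjusted p = 0.0477). LOC4333957 gave 110.1 and 182 against 40.3 and 63.4 (log2 difference 1.48, SE 0.13), and LOC4343000 gave 39.1 and 66.8 against 12.9 and 27.3 (log2 difference 1.29, SE 0.13), each with a limma adjusted p of 0.046. In the opposite direction, LOC4341358 gave 278 and 330.1 on D62A arrays and 658 and 915 on XQZ-A arrays (log2 difference -1.36, SE 0.13, limma adjusted p = 0.046). LOC4347155 was the other gene called lower, with 72.0 and 131 against 209 and 356 (log2 difference -1.49, SE 0.15, limma adjusted p = 0.046). In each of these 6 genes, 4 higher and 2 lower, the D62A arrays did not overlap the XQZ-A arrays. As the genes were chosen on these same arrays, this adds no support to the calls.

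The remaining 5 of the 11 probes cannot be tied to 1 gene. Probe 16490960, which lies in several genes, had the lowest log2 difference among the probes called, with 40.9 and 46.5 on D62A arrays and 205 and 208 on XQZ-A arrays (log2 difference -2.24, SE 0.20, limma adjusted p = 0.046). On the arrays of ZhenShan97A (12.6 and 21.4) and Meixiang B (24.2 and 18.1) it was lower still. Probe 16424778, in no annotated gene, was likewise brightest on the XQZ-A arrays, at 56.2 and 56.4 on D62A arrays, 217 and 235 on XQZ-A arrays, and between 41.6 and 64.4 on the other 4 arrays.

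Genes with a symbol make up 1472 of the 9960 genes fitted. Of them, 8 (0.543%) were at least 2-fold higher and 4 (0.272%) at least 2-fold lower on D62A arrays in both replicate numbers, and limma called none of the 12 at an adjusted p under 0.05. The 12 encode enzymes of fermentation, of the glyoxylate cycle and of lignin metabolism, hormone and stress regulators, an anther protein and a few membrane and cytoskeletal proteins.

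PDC1, a pyruvate decarboxylase that commits pyruvate to ethanol fermentation, differed most. Its intensities were 97.5 and 174 on D62A arrays against 12.3 and 17.7 on XQZ-A arrays, which lie at or just above the floor of 16. The difference was 6.09-fold in replicate 1, measured to the floor, and 9.81-fold in replicate 2 (log2 difference 2.95, SE 0.48, limma adjusted p = 0.0907). ZhenShan97A split over this range, with 116 in replicate 1 and 39.7 in replicate 2, while Meixiang B gave 37.7 and 27.7.

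ICL encodes isocitrate lyase, which with malate synthase makes up the glyoxylate bypass that turns acetyl units from lipids into sugars. It gave 59.4 and 154 on D62A arrays and 312 and 441 on XQZ-A arrays (log2 difference -1.96, SE 0.33, limma adjusted p = 0.0934). The 4 other arrays lay between 125 and 143, so that the XQZ-A arrays were the highest of the 8. The study instead lists isocitrate lyase as raised in D62-A/MB alone, so the exchange of names described above bears on this gene. MS, malate synthase, was lower on D62A arrays as well, at 181 and 351 against 348 and 466 (log2 difference -0.68, SE 0.17, limma adjusted p = 0.16), but its replicates overlap between the lines. The ATP citrate lyase genes ACLA-2 and ACLB-1, which supply acetyl-CoA, had log2 differences of -0.03 and 0.15. Of the 4 genes of this list, 1 passed the 2-fold rule and limma called none at an adjusted p under 0.05.

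OsC4, a gene first known from anther cDNA, gave 138 and 260 on D62A arrays and 33.7 and 78.0 on XQZ-A arrays (log2 difference 1.88, SE 0.22, limma adjusted p = 0.0546), 4.08- and 3.33-fold. It was higher again in Meixiang B, at 661 and 1263. OsC6, a lipid transfer protein of the tapetum needed for the pollen wall, had no such difference between the sterile lines. It gave 32.1 and 84.9 on D62A arrays and 33.2 and 69.5 on XQZ-A arrays, against 415 and 2063 in Meixiang B. The tapetum regulator GAMYB (GAM1) gave 150.2 and 209 against 168 and 189. Of 17 tapetum and pollen wall markers, 7 could be tied to a probe and 3 exceeded 16 on all 4 arrays, while UDT1, PTC1 and TDR lay under 16 on each of them. The summed intensity of the 7 was 335 and 601 on D62A arrays, 248 and 377 on XQZ-A arrays, 295 and 693 on ZhenShan97A arrays and 1280.3 and 3658 on Meixiang B arrays. Without OsC4 the other 6 summed to 198 and 342 on D62A arrays and 215 and 299 on XQZ-A arrays. Fewer cells of a type and less RNA per cell cannot be told apart in such samples, and the part of tissue composition in the differences between D62A and XQZ-A was not tested.

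Of the markers of other floral tissues, lemma and palea genes were measured well above the floor although the methods name anthers. The lemma and palea genes MADS1, MADS14, MADS15 and MADS6 summed to 585 and 819 on D62A arrays and 504 and 732 on XQZ-A arrays, all 4 above 16 on each array. MADS6 went against the sum and was lower on D62A arrays (60.7 and 107 against 79.6 and 123). The stamen and lodicule genes with a probe, MADS2, MADS4 and MADS16, summed to 568 and 858 against 530.0 and 860.2. Of these, MADS4 lay under 16 on all 4 arrays. Of the 5 late pollen markers 0 had a probe, and the 2 meiosis genes with a probe, PAIR1 and MEL1, were not above 16 on all 4 arrays. The carpel gene DL gave 34.8 and 59.0 against 20.03 and 39.9 (log2 difference 0.68, SE 0.14, limma adjusted p = 0.12). MADS21, the other carpel and ovule marker with a probe, lay under or at the floor (3.85 and 13.5 against 5.14 and 16.02).

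**Figure D3:**
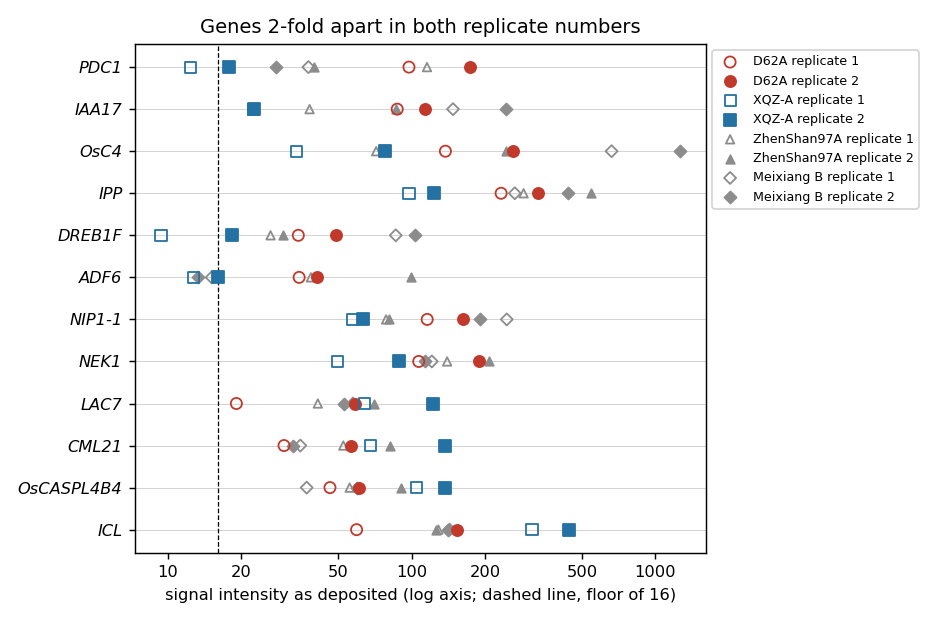
Deposited signal intensity (horizontal log axis, dashed line at the floor of 16) of the 12 genes with a symbol that were 2-fold apart in both replicate numbers, with 1 point for each of the 8 arrays (open, replicate 1, filled, replicate 2). Red D62A points lie to the right of the blue XQZ-A points from PDC1 to NEK1 and to the left of them from LAC7 to ICL. These lines do not overlap in any of the 12, which adds no support since the genes were chosen on the same arrays.

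IAA17, one of the Aux/IAA repressors that auxin marks for degradation, gave 87.3 and 114 on D62A arrays and 22.4 and 22.6 on XQZ-A arrays (log2 difference 2.15, SE 0.26, limma adjusted p = 0.0546). DREB1F, a transcription factor of cold, drought and salt responses, gave 34.3 and 49.1 against 9.36 and 18.2 (log2 difference 1.26, SE 0.14, limma adjusted p = 0.0546), and IPP, an inorganic pyrophosphatase gene by its aliases, gave 233 and 328 against 97.5 and 123 (log2 difference 1.34, SE 0.17, limma adjusted p = 0.0546). In all 3 genes Meixiang B lay above both XQZ-A and D62A in both replicate numbers.

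NIP1-1, a nodulin-26-like intrinsic protein of the aquaporin family, gave 116 and 163 against 57.3 and 62.9 (log2 difference 1.19, SE 0.20). ADF6, an actin depolymerizing factor, gave 34.5 and 41.1 on D62A arrays, while the XQZ-A arrays (12.7 and 16.1) and those of Meixiang B (15.1 and 13.3) lay at or near the floor. NEK1, a NIMA-related kinase, gave 107 and 189 against 49.7 and 88.9 (log2 difference 1.10, SE 0.24). Their limma adjusted p were 0.0961, 0.179 and 0.13 in the same order. The difference of NEK1 and of NIP1-1 was just under 2-fold in 1 replicate number after quantile normalization and after division by the median. That of ADF6 was so after quantile normalization, and with a floor of 32 ADF6 and DREB1F did not reach 2-fold.

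Beside ICL, 3 genes with a symbol were 2-fold lower on D62A arrays. CML21, a calmodulin-like calcium sensor, gave 29.9 and 56.1 on D62A arrays and 67.5 and 138 on XQZ-A arrays (log2 difference -1.23, SE 0.26, limma adjusted p = 0.129). OsCASPL4B4, a membrane protein related to those that position the Casparian strip, gave 46.2 and 61.1 against 104 and 137 (log2 difference -1.17, SE 0.14, limma adjusted p = 0.0546). LAC7, a laccase of the enzyme family that polymerizes lignin monomers, gave 19.1 and 58.6 against 64.1 and 122 (log2 difference -1.40, SE 0.35, limma adjusted p = 0.167). In these 3 genes the arrays of Meixiang B were below both XQZ-A arrays.

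The study lists IAA9 among genes lowered in D62-A/MB, whereas the lower arrays here were those labelled XQZ-A. IAA9 also showed how far single replicates went apart. It gave 16.9 and 104 on D62A arrays and 6.41 and 10.3 on XQZ-A arrays, so that the log2 difference was 0.07 in replicate 1 at the floor and 2.70 in replicate 2 (limma adjusted p = 0.495).

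Locus numbers without a symbol held the larger part of the 2-fold differences. Of the 82 probes higher on D62A arrays, 52 lie in exactly 1 gene, 4 in several and 26 in none, and of the 42 lower probes 28, 2 and 12. LOC4338883 (50.3 and 120.4 against 7.34 and 18.6), LOC4334442 (154 and 316 against 49.5 and 47.1), LOC4348937 (91.0 and 216 against 23.4 and 62.6) and LOC4339328 (48.9 and 87.4 against 8.66 and 17.0) had, with LOC4330012, the 5 largest differences on the higher side by the smaller of both replicate differences. All 5 were highest of the 8 arrays on one of Meixiang B. It was that of replicate 2 for LOC4330012 (826), LOC4348937 (1254), LOC4338883 (348) and LOC4339328 (650.4), and that of replicate 1 for LOC4334442, with 398 there and 86.4 in replicate 2.

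On the lower side, LOC4323922, annotated as a long non-coding RNA, exceeded 16 on the XQZ-A arrays alone. Its intensity was 47.8 and 106 there, and between 4.20 and 10.9 on the other 6 arrays, all under the floor. With no floor and 1 added, its log2 difference was -3.11 and it was the single probe called by limma at the thresholds of the methods (adjusted p = 0.000733), whereas on floored values the adjusted p was 0.058. LOC4335910 (14.4 and 16.6 against 74.2 and 53.4), LOC4338208 (151 and 135 against 430 and 503), LOC4352857 (72.0 and 109 against 222 and 288) and LOC4347155 completed the 5. LOC4338208 is represented by 2 probes of identical values, which count as 1 measurement.

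Where the other lines lay was asked for these probes, as a description, since the probes were chosen on the values of D62A and XQZ-A. Among the 82 probes higher on D62A arrays, Meixiang B was at or above D62A in both replicate numbers for 49, between the lines for 10 and at or below XQZ-A for 2, with the rest mixed. ZhenShan97A was at or above D62A for 30 and at or below XQZ-A for 0. The median log2 intensity difference of Meixiang B was 0.48 from D62A and 1.84 from XQZ-A. Among the 41 distinct probes lower on D62A arrays, Meixiang B was at or below D62A in both replicate numbers for 9. It lay between the lines for 9 and at or above XQZ-A for 1, with 22 mixed. For ZhenShan97A these counts were 5, 18, 1 and 17. By nearness in both replicate numbers, Meixiang B lay toward D62A for 22 and toward XQZ-A for 6, and ZhenShan97A for 21 and 9. On the higher side, nearness gave 64 and 8 for Meixiang B and 50 and 11 for ZhenShan97A. By these counts XQZ-A was set apart more often than D62A in both directions, less clearly so on the lower side.

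Groups of genes were then described at a looser limit of 1.5-fold within both replicate numbers, which 51 of the 1472 genes with a symbol met on the higher side (3.46%) and 24 on the lower side (1.63%). The median log2 difference of these 1472 genes was 0.06, 39.4% of them were higher and 22.6% lower in both replicate numbers, and 14.1% were higher and 5.16% lower at an unadjusted p under 0.05. The groups were drawn up from gene symbols with earlier results of these arrays known, and genes singled out at 1.5-fold were chosen after their values were seen. In no group did limma call a member at an adjusted p under 0.05.

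Auxin signalling genes had the highest median difference of the groups on these values, though not with a floor of 32, where the cellulosic wall genes (0.17) lay above them (0.11). Of 35 genes fitted, 5 (14.3%) were at least 1.5-fold higher on D62A arrays and 0 lower, 18 were higher and 2 lower in both replicate numbers, and 10 were higher and 0 lower at an unadjusted p under 0.05. The median was 0.25, and it was 0.30 after quantile normalization and 0.17 after division by the median. Taken by replicate number, the median difference was 0.03 in replicate 1 and 0.33 in replicate 2. These 2 values were 0.28 and 0.21 after quantile normalization, and 0.11 and 0.21 after division by the median. For all genes with a symbol they were 0 and 0.11 on the main values. Beside IAA17, the 5 were the repressors IAA15 (92.6 and 138 against 32.2 and 84.5) and IAA1 (112 and 135 against 53.2 and 82.8) and the auxin response factors ARF9 (144 and 278 against 94.3 and 140.2) and ARF23 (148 and 268 against 98.3 and 141), which bind auxin-responsive promoters. Their limma adjusted p ran from 0.0546 for IAA17 to 0.282 for ARF23. The brightest members that did not pass 1.5-fold were ARF, ARF2 and IAA6. ARF, listed by its bare symbol and not tied to an auxin response factor here, gave 1022 and 1284 against 928 and 1170 (log2 difference 0.14), and without it the median of the other 34 was 0.26. ARF2 gave 665 and 997 against 548 and 676 (log2 difference 0.42). IAA6 gave 218 and 418 against 301 and 338, a log2 difference of -0.46 in replicate 1 and 0.31 in replicate 2. SAUR39, a small auxin-induced gene, had the lowest difference, -0.54, at 30.1 and 51.2 against 47.0 and 69.1.

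Genes of the cellulosic wall held members on both sides, with those past 1.5-fold higher on D62A arrays. Of 23 fitted, 4 (17.4%) were at least 1.5-fold higher and 0 lower, 12 were higher and 6 lower in both replicate numbers, and 7 were higher and 2 lower at an unadjusted p under 0.05. The median was 0.17, and it was 0.19 after quantile normalization and 0.09 after division by the median. CESA6 (185 and 360.2 against 106 and 199.9) and CESA8 (241 and 276 against 148 and 178) encode catalytic subunits of cellulose synthase. BC1L9, a COBRA-like protein of the family that orders cellulose deposition, gave 62.2 and 51.7 against 24.7 and 26.6 (log2 difference 1.15, SE 0.16, limma adjusted p = 0.058), and CSLA1, a cellulose synthase-like gene, gave 30.9 and 41.9 against 12.4 and 18.1. CESA1 had a log2 difference of 0.49 and CSLF6, which makes mixed-linkage glucan, of 0.64, whereas CESA2, CSLE6 and the glucanase GLU10 had -0.36, -0.39 and -0.40. After quantile normalization or division by the median, 3 members passed 1.5-fold.

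A list of 14 xylan and xyloglucan genes, drawn up after their values were seen, held 1 member past 1.5-fold on each side (7.14% each). By sign, 7 were higher and 3 lower in both replicate numbers, and the median was 0.16. IRX9, a glycosyltransferase of the xylan backbone, was higher on D62A arrays (27.8 and 50.3 against 12.03 and 21.8). Its XQZ-A value in replicate 1 lay under the floor (log2 difference 1.00, SE 0.49, limma adjusted p = 0.427). XOAT7, named for xylan O-acetyltransferases, was lower on D62A arrays (20.02 and 55.5 against 33.3 and 102). EXPB3 was the 1 expansin of 24 past 1.5-fold, at 24.0 and 45.7 against 11.97 and 27.3.

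Chaperones of the endoplasmic reticulum (ER) and their regulators lay toward XQZ-A, in a list that was likewise drawn up after values had been seen. Of 17 fitted, 0 were higher and 2 lower by 1.5-fold, 10 were lower and 1 higher in both replicate numbers, and the median was -0.28, with -0.28 after quantile normalization, -0.36 after division by the median and -0.16 with a floor of 32. BIP4, an ER-resident Hsp70, gave 36.5 and 94.9 on D62A arrays and 102 and 171 on XQZ-A arrays (log2 difference -1.17, SE 0.27, limma adjusted p = 0.15), and 28.3 to 47.9 on the other 4 arrays. bZIP50, whose RNA is spliced by IRE1 when unfolded proteins accumulate in the ER, gave 241 and 333 against 398 and 547 (log2 difference -0.72, SE 0.38). The calreticulin-related CRO1 (496 and 866 against 742 and 1247) and the protein disulfide isomerases PDIL2-1 (72.9 and 88.8 against 112 and 122) and PDIL1-1 (684 and 1033 against 911 and 1202) had log2 differences of -0.55, -0.54 and -0.32. BIP1, another ER Hsp70 gene, differed by -0.16, at 507 and 1001 against 619.9 and 1021, and PDIL1-5 lay the other way, at 0.54.

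**Figure D4:**
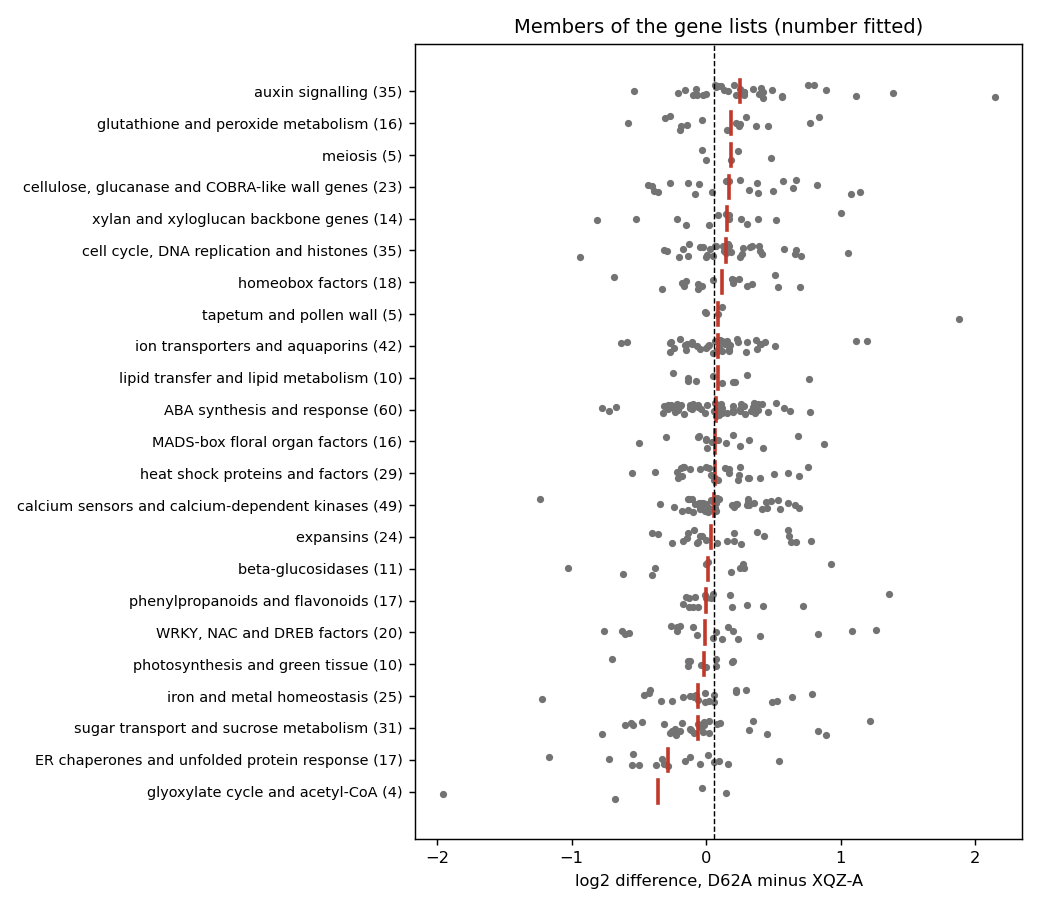
Log2 difference, D62A minus XQZ-A, of each fitted member (grey point) of the 23 gene lists (rows, number fitted in brackets), with the list's median as a red bar and the median of the 1472 genes with a symbol, 0.06, as a dashed line. Auxin signalling has the highest median, 0.25, though not with a floor of 32. The ER list, drawn up after values were seen, and the 4 glyoxylate cycle and acetyl-CoA genes have the lowest, -0.28 and -0.35.

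Cell cycle, DNA replication and histone genes had log2 differences from -0.93 to 1.06. Of 35, 18 were higher and 3 lower on D62A arrays in both replicate numbers and 14 had no common sign, 5 were higher and 0 lower at an unadjusted p under 0.05, and none reached 1.5-fold in both. The cyclin CYCD5-3 (75.1 and 94.6 against 39.1 and 68.5), the cyclin-dependent kinase CDC2-2 (37.1 and 56.0 against 21.9 and 37.4) and the origin recognition subunit ORC4 (27.9 and 48.8 against 19.98 and 27.4) had log2 differences of 0.70, 0.67 and 0.66. CycB1-1 and the histone H2B.6 turned between replicates, with 0.33 and -2.20 for the one and -0.23 and 2.34 for the other.

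Families of regulators held differences on both sides. Of 20 WRKY, NAC and DREB factors, DREB1F and WRKY76, a factor of defence and cold responses (69.1 and 102 against 38.4 and 58.1), were past 1.5-fold on the higher side and NAC004 on the lower side (26.3 and 36.6 against 40.9 and 67.2). The abscisic acid list took PP2C phosphatases and bZIP factors by symbol, and not all of them are tied to that hormone. Of the 60 genes in this list of abscisic acid synthesis and response, 0 were higher and 3 lower by 1.5-fold. The 3 are the bZIP factors OsbZIP70 (48.1 and 72.3 against 78.9 and 129), OsbZIP37 (54.4 and 112 against 89.2 and 173) and bZIP50. OsbZIP70 and OsbZIP37, with the aliases TGAL7 and TGAL6, were taken by symbol and not tied to abscisic acid here. bZIP50 is known for the ER response and not for abscisic acid. The listed phosphatases of the PP2C family and the synthesis gene NCED3 (50.5 and 161 against 48.4 and 103) did not pass 1.5-fold. The symbols of this list missed MHZ4, which acts in abscisic acid synthesis and was higher on D62A arrays, by 1.65- and 1.91-fold. The counts of the list therefore give no direction for abscisic acid genes as a whole. MADS22, a floral meristem factor of the SVP group, was the 1 of 16 MADS-box and floral organ genes to do so, at 48.4 and 71.8 against 28.9 and 35.6 (log2 difference 0.88, SE 0.21, limma adjusted p = 0.15). Of 18 homeobox factors, HB2 passed on the higher side (49.5 and 61.4 against 32.9 and 34.97). The symbol pattern of that list missed other spellings, and with 13 more homeobox genes, 31 in all, 1 was higher and 2 lower. The 2 are HOX22 (98.2 and 149.9 against 173 and 233) and HOS66 (84.3 and 176 against 178 and 277).

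Transport and redox genes gave single differences. Of 42 ion transporters and aquaporins, NIP1-1 and the potassium transporter HAK27 (190 and 387 against 112 and 139) were higher and the tonoplast aquaporin TIP2-2 lower on D62A arrays (256 and 235 against 406 and 355). Of 25 genes of iron and metal homeostasis, MTP7, of a family of metal tolerance transporters, was lower (53.8 and 92.7 against 155 and 174, log2 difference -1.22, SE 0.23, limma adjusted p = 0.114). APX1, a cytosolic ascorbate peroxidase that removes hydrogen peroxide, was higher (295 and 520 against 191 and 275, log2 difference 0.77, SE 0.13, limma adjusted p = 0.0961), as was the glutathione transferase GSTZ5 (33.7 and 41.9 against 14.0 and 27.6), among 16 genes of glutathione and peroxide metabolism. The catalases CAT-A and CAT-B had log2 differences of 0.30 and -0.20.

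Carbon and phenolic metabolism added PAL06, a phenylalanine ammonia-lyase at the entry to lignin and flavonoids (46.4 and 91.6 against 23.4 and 27.5, log2 difference 1.36, SE 0.19, limma adjusted p = 0.058), the 1 of 17 phenylpropanoid genes past 1.5-fold. TPP1, a trehalose-6-phosphate phosphatase, was the 1 of 31 genes of sugar transport and sucrose metabolism past it (95.0 and 79.4 against 31.7 and 43.8, log2 difference 1.22, SE 0.23, limma adjusted p = 0.112). The bright sugar transporters SWEET4 (794 and 1313 against 785 and 1147) and MST3 (375 and 767 against 637 and 874) and the cell wall invertase CIN1 (41.8 and 167 against 110 and 187) did not meet that limit. The beta-glucosidases went opposite ways: Os3bglu8 gave 28.6 and 35.9 on D62A arrays and 14.6 and 17.7 on XQZ-A arrays, and Os5bglu22 gave 8.35 and 20.7 against 33.5 and 41.0.

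**Figure D5:**
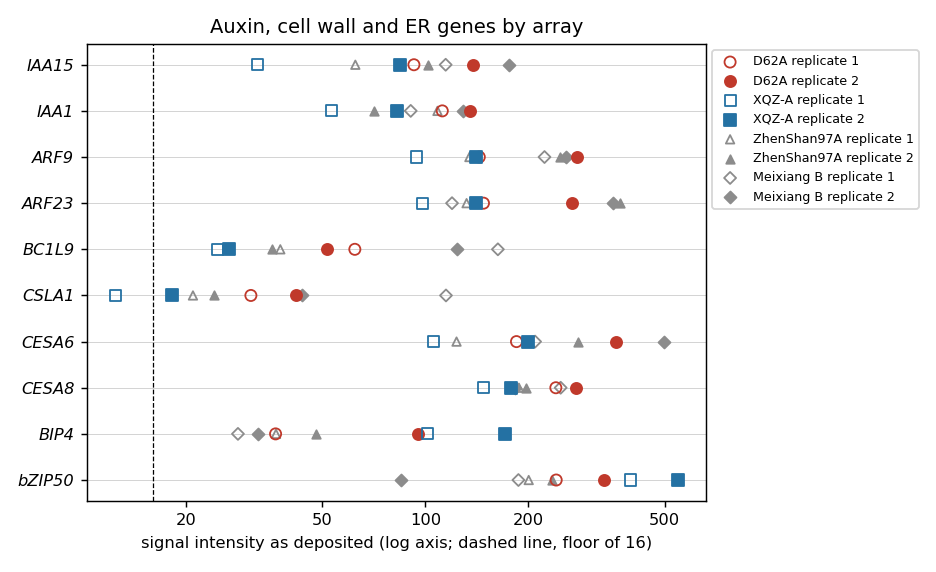
Deposited signal intensity (horizontal log axis, dashed line at the floor of 16) on each of the 8 arrays for auxin genes (IAA15, IAA1, ARF9, ARF23), wall genes (BC1L9, CSLA1, CESA6, CESA8) and ER genes (BIP4, bZIP50), open symbols for replicate 1 and filled for replicate 2. D62A (red) lies above XQZ-A (blue) in each replicate number for the first 8 and below it for BIP4, with 36.5 and 94.9 against 102 and 171, and for bZIP50.

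The other lists held few differences. Of 29 heat shock genes, HSP18.1 was past 1.5-fold (25.5 and 84.7 against 16.3 and 50.9). Of 49 calcium sensors and calcium-dependent kinases, CPK3 was higher (48.0 and 69.2 against 31.4 and 42.3) and CML21 lower. None of 10 lipid transfer and lipid metabolism genes, 10 photosynthesis genes and 5 meiosis genes reached 1.5-fold in both replicate numbers, and the bright green tissue gene CAB1R gave 42.4 and 132 against 38.6 and 152. These short lists were matched by symbol and do not cover lipid metabolism, photosynthesis or meiosis as a whole. PAS2A, with the alias HACD, is not in the lipid list and was higher on D62A arrays (54.1 and 95.1 against 25.2 and 58.1). Single genes outside the lists included the mitogen-activated kinase MAPK6 (571 and 1054 against 361 and 557) and MHZ4, which acts in abscisic acid synthesis and ethylene response (127 and 176 against 76.6 and 92.4), both higher on D62A arrays. NYC1, a chlorophyll b reductase of leaf senescence (185 and 435 against 488 and 657), was lower.

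Genes that differed by 1.5-fold were spread over all 12 chromosomes in the order of the RefSeq annotation (assembly ASM3414082v1, used for gene order only). Of 9959 genes placed, 332 were higher (3.33% of the 9960 fitted) and 124 lower (1.24%) on D62A arrays, and the share that differed in either direction ran from 2.94% on chromosome 12 to 5.73% on chromosome 4. The next measured gene was also higher for 12 of the 332 (3.61%) and also lower for 5 of the 124 (4.03%). No run of more than 2 such neighbours was found.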

How the data were processed

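Total RNA of 4 rice lines, 2 biological replicates each, was hybridized to 8 one-colour rice gene arrays. The deposited values are linear signal intensities, made by the authors. MAS5 is the algorithm in their processing notes (version not given in the sources used here), whereas the published methods describe Robust Multichip Analysis and a log transformation. A further deposited table differed by 0 and added 98 control probe sets. No other column of per-sample values was left out.

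Intensities under 16 were set to 16 and log2-transformed. The 20416 of 40832 probes with the higher mean over the 8 arrays entered a model with 1 mean for each line plus the replicate number as a term, fitted in limma 3.58.1 (R 4.3.3) (3 residual and 3.96 prior degrees of freedom) and Benjamini-Hochberg adjustment. All 8 arrays entered, so that the lines share one estimate of the spread. Python 3.11.15, numpy 2.4.6, pandas 2.3.3 and matplotlib 3.10.9 gave tables and figures. The fit was run on simulated data with independent noise and known fold changes, set only in probes well above the floor. That run does not cover probes near the floor and is not used as support here. The replicate numbers are shared by the titles of all lines, and deviations of same-numbered arrays correlated by 0.728 to 0.839 over the 6 pairs of lines, so they were taken as paired. Nothing in the labels says what a replicate number shares.

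Probes were named where they lie in exactly 1 gene (15295, against 436 in several and 25101 in none). The brightest probe represents a gene, and 1948 of 14661 genes have a symbol. The genes named are up to 15 with a symbol and 5 without in each direction by the smaller of both replicate differences, list members past a limit, the brightest further members, genes that the study names, and up to 5 probes in no gene. The 21 lists used were defined by symbols, 2 were added after values were seen, and 3 were left out for mixed or single members. MTR1 was left out of the tapetum markers, since the gene of that symbol in the annotation could not be tied to the tapetum regulator. The comparison, lists, replicate term and filter were chosen with earlier results of these data known. Alternatives were other normalizations, floors, filters, thresholds and left-out arrays. With 2 arrays a line, precision is limited by their number, and whether the replicates cover separate plants is known only from the methods.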

Additional observations from a re-analysis of the deposited data

How the results depend on the processing

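The count of 0 probes at an adjusted p under 0.01 and 2-fold stayed at 0 in limma with quantile normalization, division by the median, a floor of 32, no filter on dim probes, a mean intensity above 32, only the 4 arrays, a mean-variance trend, and without any array of ZhenShan97A or Meixiang B. It was 1 with no floor and 1 added, and 11 at an adjusted p under 0.05, with or without the fold limit. With 1 array of D62A or XQZ-A left out it was 0 to 112. The 112 arose without D62A replicate 1, and 7 of them were 2-fold apart in both replicate numbers with all arrays. With no replicate block it was 0, both with the filter (247 probes at an unadjusted p under 0.05) and without it (682), and with the replicate block and no filter it was 0 (2407).

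The 124 probes 2-fold apart in both replicate numbers became 127 with quantile normalization, 133 with division by the median, 148 with no floor and 72 with a floor of 32. Of the 124, these settings kept 94, 105, 117 and 72. The count was 726 at 1.5-fold and 2 at 4-fold. Without the pairing it was 368 for a 2-fold difference between means and 269 where the arrays also did not overlap, and it was 384 to 613 with 1 array left out. With identical probes counted once, a choice made after seeing the data, it was 123. Of 1503 log2 differences recomputed for 166 named genes and probes, 1305 moved by at most 1 SE and 0 genes past 1.5-fold changed sign. Probes under 16 on either line have a bound in place of a difference, and 2 arrays a line limit the rest. The causes of these changes were not tested.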
